A study of Homo sapiens with 9 samples.

Results

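HUCCT-1 cells, a line of human cholangiocarcinoma, were transfected with siRNA against both YAP and TAZ, and the RNA of silenced cells was compared with that of cells given scrambled siRNA. All 6 silenced arrays were set against the 3 scrambled arrays, over all 39334 probe sets of the array and all 9 arrays of the study. A gene was counted as shared by both siRNA combinations when the mean of both combinations differed from scrambled siRNA at an adjusted p under 0.05 and every silenced array lay on the same side of every scrambled array, so that each combination alone moved the gene the same way. The shared set held 560 of 39334 probe sets (1.42%), 276 raised and 284 lowered.

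YAP (gene YAP1) and TAZ (gene WWTR1) are transcriptional co-activators that bind no DNA themselves and reach their target genes mainly through the TEAD transcription factors. The kinases of the Hippo pathway, MST and LATS, phosphorylate them and hold them in the cytoplasm. In the bile duct epithelium and in tumours derived from it, their activity is known for its links with proliferation and cell survival.

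The silenced cells fall into a pair of groups of 3 arrays. Combination 1 joins the siRNAs labelled YAP1 and TAZ2, combination 2 joins those labelled YAP2 and TAZ3, and the scrambled group received an siRNA with no intended target. Cells of all groups received 40 nM siRNA in total, and RNA was taken after 24 h. The sources used here do not describe the TAZ3 siRNA further, they cover a single cell line, and they do not say whether the arrays of a group came from separate cultures, so the p-values take in no more than the spread among the arrays of a group, which may be technical. Both combinations were compared with the same 3 scrambled arrays. A high or low scrambled array therefore moves the values of both.

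Each value is a log2 signal, so a difference of 1 is a doubling of the signal, and errors given for differences are moderated standard errors of limma. The array medians were 5.81 on every array. Combination 2 replicate 3 stood apart, with a quality weight of 0.415 where the other arrays had weights between 0.69 and 1.6. Of the 9 measured biliary markers, 7 had a positive mean fold change and 2 a negative one, with a median of 0.08. KRT7, a negative one, lay between 11.49 and 11.69 on the silenced arrays and between 11.70 and 11.71 on the scrambled arrays. ALB, a hepatocyte marker, lay between 4.35 and 4.43 on the silenced arrays and between 4.21 and 4.29 on the scrambled arrays, under the lower quartile of each array (4.77). PTPRC, a leukocyte marker, lay between 4.29 and 4.42 on the silenced arrays and between 4.23 and 4.35 on the scrambled arrays. None of the 29 measured markers of biliary epithelium, hepatocytes, fibroblasts, endothelium and leukocytes passed the test for the mean of both combinations in limma (1.53% of all probe sets did). At an unadjusted p under 0.05, 8 of the 29 were raised and 0 lowered, and an ordinary linear model called 1.

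Both siRNA targets were lower on every silenced array. YAP1 had log2 signals of 6.84, 6.85 and 6.95 with combination 1, 6.86, 6.73 and 6.97 with combination 2, and 9.15, 9.06 and 9.08 with scrambled siRNA. WWTR1 had 6.97, 7.06 and 7.02 with combination 1, 6.95, 6.98 and 6.99 with combination 2, and 8.41, 8.30 and 8.38 with scrambled siRNA. The silenced arrays lay in a narrow band far under the scrambled arrays for both genes. The mean log2 fold change of both combinations was -2.23 ± 0.06 for YAP1 (adjusted p = 4.96e-06) and -1.37 ± 0.05 for WWTR1 (adjusted p = 1.33e-05). The combinations differed by -0.03 for YAP1 (95% interval -0.19 to 0.14) and by -0.04 for WWTR1 (-0.17 to 0.08). The pseudogene YAP1P1 fell by 1.99 as well, and since it is a copy of YAP1 its probes may read YAP1 RNA.

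Promoters of 5 shared genes are shown because they carry the motifs of the pathways that run through the set. They are the 250 bases before the annotated start (RefSeq, GRCh38.p14), read 5′ to 3′ on the strand of the gene, with the motif in capitals. ANKRD1 and CCN2, YAP/TAZ target genes, were lowered, and the capitals mark the TEAD motif GGAATG. IFIT1 and DDX60, genes of the interferon response, were raised, and the capitals mark the interferon response element (GAAA, any 2 bases, GAAA) on either strand. TOP2A, a mitosis gene picked for display after its values were seen, was lowered, and the capitals mark the cell cycle homology region TTTGAA on either strand.
ANKRD1, chr10:90921088-90921337, minus strand: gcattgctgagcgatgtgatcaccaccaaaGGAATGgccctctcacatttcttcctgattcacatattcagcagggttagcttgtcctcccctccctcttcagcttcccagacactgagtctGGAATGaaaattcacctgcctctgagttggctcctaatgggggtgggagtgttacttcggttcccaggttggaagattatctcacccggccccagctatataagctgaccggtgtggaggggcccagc
CCN2, chr6:131951373-131951622, minus strand: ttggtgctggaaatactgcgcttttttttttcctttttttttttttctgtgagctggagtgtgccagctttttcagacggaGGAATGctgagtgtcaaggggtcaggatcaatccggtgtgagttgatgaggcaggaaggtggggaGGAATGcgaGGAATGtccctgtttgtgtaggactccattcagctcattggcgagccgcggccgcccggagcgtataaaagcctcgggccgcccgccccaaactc
IFIT1, chr10:89392373-89392622, plus strand: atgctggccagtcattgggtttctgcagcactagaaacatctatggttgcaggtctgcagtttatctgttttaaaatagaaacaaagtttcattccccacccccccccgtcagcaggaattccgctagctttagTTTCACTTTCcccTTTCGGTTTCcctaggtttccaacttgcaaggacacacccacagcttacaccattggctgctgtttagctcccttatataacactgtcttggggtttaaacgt
DDX60, chr4:168318753-168319002, minus strand: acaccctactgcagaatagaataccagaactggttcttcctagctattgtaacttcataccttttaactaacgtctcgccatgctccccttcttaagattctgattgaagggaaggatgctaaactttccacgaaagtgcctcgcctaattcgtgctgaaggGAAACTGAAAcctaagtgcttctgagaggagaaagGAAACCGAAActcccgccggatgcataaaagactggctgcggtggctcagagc
TOP2A, chr17:40417897-40418146, minus strand: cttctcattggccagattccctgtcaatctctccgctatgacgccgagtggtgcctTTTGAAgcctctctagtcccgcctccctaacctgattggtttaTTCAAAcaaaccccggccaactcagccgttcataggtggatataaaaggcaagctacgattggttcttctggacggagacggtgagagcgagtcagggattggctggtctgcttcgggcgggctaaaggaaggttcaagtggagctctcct

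ANKRD1 held its TEAD motif 220 and 128 bases before the start, and CCN2 at 169, 104 and 95 bases. The element stood 116 and 103 bases before the start of IFIT1 and 88 and 53 bases before that of DDX60. In windows of 300 bases, from 250 before to 50 after the start and on both strands, GGAATG was present in 18.6% of the promoters of lowered genes and in 13.9% of those of raised genes, against 14% of all 35116 promoters. Of the promoters of lowered YAP/TAZ target genes 45.5% held it (10 of 22), and of those of target genes outside the shared set 35% (7 of 20). The interferon response element was in 14.5% of the promoters of raised genes (43 of 296) and in 3.31% of those of lowered genes, against 3.57% of all promoters. Among promoters of raised genes outside the interferon gene lists, 7.91% held the element (20 of 253). It stood in 54.1% of the promoters of shared type I interferon genes and in 70.6% of those of interferon genes outside the shared set. TTTGAA was in 18.6% of the promoters of lowered genes, against 15.2% of all promoters. It stood in 55.6% of those of shared mitosis genes (10 of 18) and in 56.1% of those of mitosis genes outside the shared set (32 of 57). These shares count promoters, and a gene with several promoters counts more than once. The 296 promoters of raised genes belonged to 188 genes, and the 22 of lowered YAP/TAZ targets to 13. A match is a description of the sequence and not a measured site.

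For the mean of both combinations 600 of 39334 probe sets passed the test (1.53%), 297 raised (0.755%) and 303 lowered (0.77%). At an unadjusted p under 0.05 there were 6322 (16.1%). The silenced and scrambled arrays did not overlap for 3698 probe sets (9.4%), 2324 with the silenced arrays all above (5.91%) and 1374 all below (3.49%). Of the 600, 40 overlapped, which left the 560 of the shared set, 276 raised (0.702%) and 284 lowered (0.722%).

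Effects of the shared set were mostly small. Their size lay between 0.22 and 2.36, with a median of 0.42. The median over all probe sets was 0.0857, and the rule that chose the set by itself puts its members above that. Of the 560 members, 194 reached a size of at least 0.5 and 19 at least 1, 13 of them raised and 6 lowered. Protein-coding genes made up 414 of them (73.9%, against 46.3% of all probe sets), with 41 long non-coding RNAs, 75 pseudogenes and 25 probe sets with no symbol here. Of the shared members, 170 passed with each combination by itself, 218 with combination 1 only, 80 with combination 2 only, and 92 with neither. Over all probe sets, 1.47% passed with combination 1 by itself and 0.737% with combination 2 by itself.

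Members at the limit of the rule lay close together. SKP2 cleared the scrambled arrays by 0.002 on the log2 scale, RIGI by 0.013, TMTC3 by 0.014 and ANKFY1 by 0.018. Genes past the test whose arrays overlapped by as little were KATNAL1, by 0.001, SP100, by 0.014, and RPS6KA5, by 0.024. IFI44L, an interferon gene, had 10.93, 10.97 and 11.11 with combination 1, 9.07, 9.39 and 8.84 with combination 2, and 8.13, 8.85 and 8.60 with scrambled siRNA. Its mean fold change was 1.52, and a single combination 2 array fell just under the highest scrambled array and kept it out of the set.

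**Figure D1:**
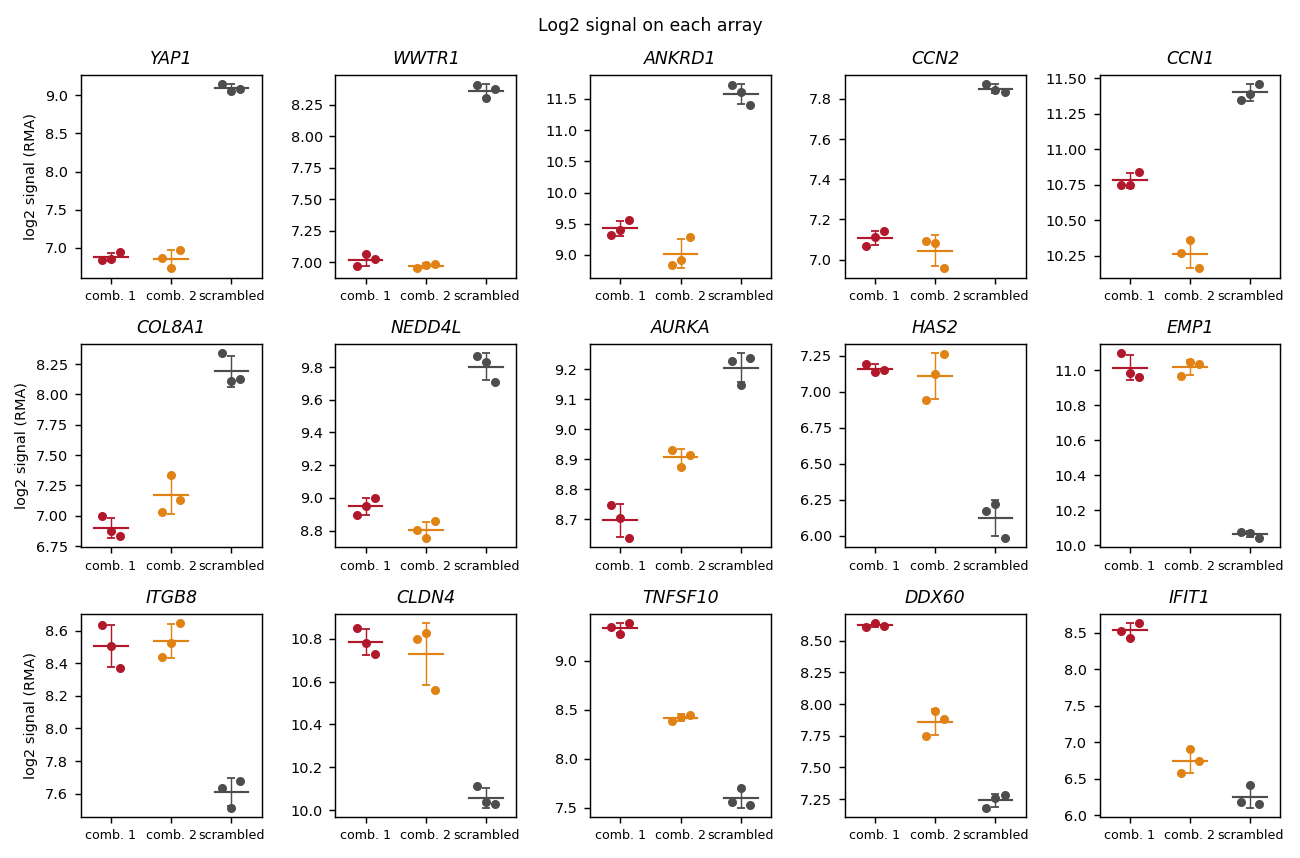
Log2 signal (RMA, vertical axis, scaled per gene) of 15 genes on each array with combination 1, combination 2 and scrambled siRNA. Points are arrays, horizontal lines the group means and bars the SD (n = 3 each). In YAP1, WWTR1, CCN2, HAS2 and EMP1 both silenced groups lie together away from the scrambled arrays, while in TNFSF10, DDX60 and IFIT1 the combination 1 arrays lie above those of combination 2.

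Genes known as direct targets of YAP and TAZ were lowered together. Of 34 measured members of the target list, 16 were lowered and 0 raised, all 16 of them in the shared set, where 1.53% of all probe sets passed the limma test in either direction. At an unadjusted p under 0.05, 21 were lowered and 0 raised. The median log2 fold change of the list was -0.27, with -0.23 for combination 1 and -0.25 for combination 2, beside 0.01 over all probe sets. The list was written from general knowledge with earlier results of these arrays known. The 1.53% takes in non-coding and dim probe sets, so it is a loose comparison for every list here. Protein-coding genes made up 73.9% of the shared set and 46.3% of all probe sets.

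ANKRD1, a cofactor of muscle and stress genes and a standard readout of YAP activity, had log2 signals of 9.33, 9.40 and 9.56 with combination 1, 8.85, 8.93 and 9.29 with combination 2, and 11.72, 11.62 and 11.41 with scrambled siRNA. All its silenced arrays lay far under its scrambled arrays, and its mean log2 fold change of -2.36 ± 0.11 was the largest of the shared set (adjusted p = 0.000122). CCN2, a matricellular protein also called CTGF, had 7.07, 7.11 and 7.14 with combination 1, 7.09, 7.08 and 6.96 with combination 2, and 7.88, 7.84 and 7.84 with scrambled siRNA. Its mean fold change was -0.78 ± 0.05 (adjusted p = 0.000389), with a difference between the combinations of -0.06 (95% interval -0.19 to 0.07). CCN1, its relative CYR61, had 10.75, 10.75 and 10.84 with combination 1, 10.27, 10.36 and 10.16 with combination 2, and 11.35, 11.39 and 11.46 with scrambled siRNA. Both silenced groups were low, and combination 2 was lower than combination 1 by 0.51 (adjusted p = 0.022).

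EDN1, the vasoconstrictor endothelin, fell by 0.63, INHBA, a subunit of activin, by 0.63, and CRIM1, a transmembrane regulator of bone morphogenetic proteins, by 0.56. AXL, a receptor tyrosine kinase, fell by 0.39, and TGFB2, a ligand of the TGF-beta receptors, by 0.35. UHMK1, a kinase, had 9.92, 9.86 and 9.75 with combination 1, 9.02, 9.04 and 9.18 with combination 2, and 10.06, 10.00 and 10.10 with scrambled siRNA. All its silenced arrays lay under its scrambled arrays, as the rule requires, but nearly the whole effect lay in combination 2. The fold change there was -0.97 against -0.21 with combination 1 (adjusted p of the difference = 0.00342). With combination 1 alone it did not pass in limma (adjusted p = 0.21). Listed targets that did not pass included BIRC5 at -0.31, NUAK2 at -0.29, SLIT2 at -0.19, F3 at -0.07, FJX1 at -0.09 and AMOTL1 at 0.01. The count of 16 was between 8 and 10 without any 1 array other than combination 2 replicate 3, and 16 without that array.

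The Hippo pathway itself holds several genes that YAP and TAZ also regulate. Of its 46 measured members, 8 were lowered and 1 raised (19.6%, against 1.53% of all probe sets), all in the shared set, with a median of -0.03. NF2, the membrane scaffold merlin that activates LATS, had 8.42, 8.42 and 8.40 with combination 1, 8.41, 8.29 and 8.23 with combination 2, and 8.88, 8.83 and 8.91 with scrambled siRNA. WWC1 (KIBRA), a scaffold that works with NF2, fell by 0.52, AMOTL2, which binds YAP at junctions, by 0.48, AJUBA, an inhibitor of LATS, by 0.34 and the kinase LATS2 by 0.29. VGLL1, a TEAD cofactor, had 8.89, 8.84 and 8.69 with combination 1, 9.27, 9.33 and 9.21 with combination 2, and 9.59, 9.50 and 9.49 with scrambled siRNA. It was lower with combination 1 than with combination 2 (difference 0.47, adjusted p = 0.0407). With combination 2 alone it moved by -0.25, which did not pass in limma (adjusted p = 0.18). MAP4K4, a kinase that acts upstream of LATS, was the raised member, at 0.23. The TEAD genes did not pass, with TEAD1 at -0.17, TEAD2 at 0.01, TEAD3 at 0.03 and TEAD4 at -0.20.

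**Figure D2:**
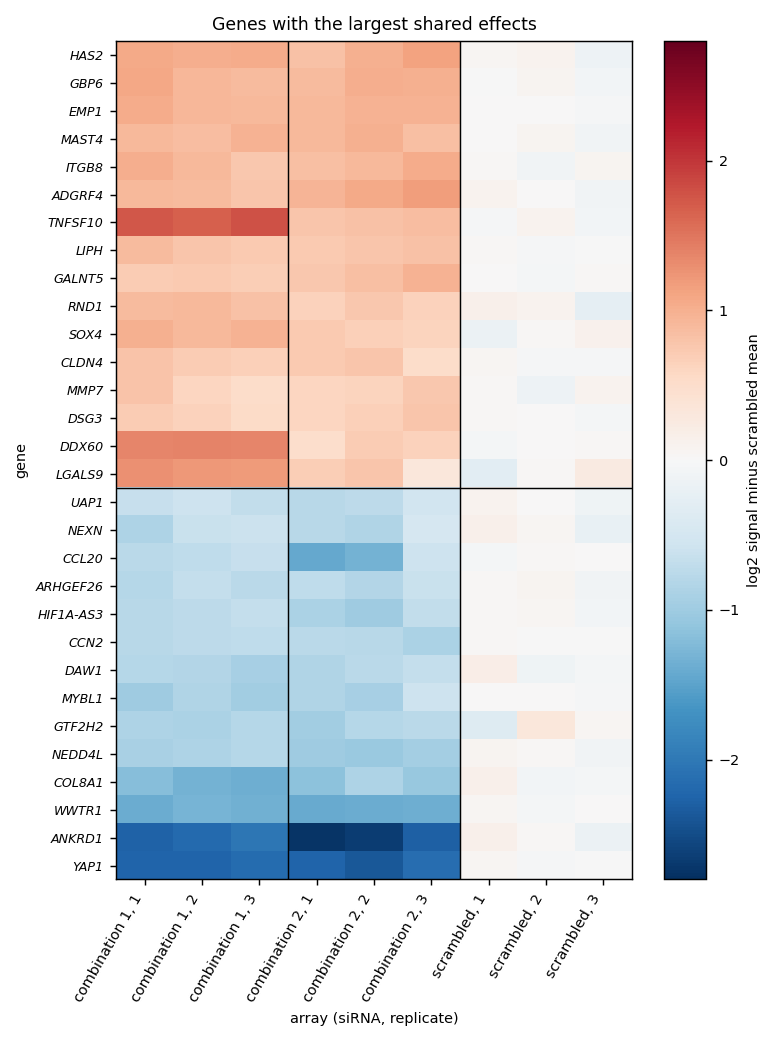
Log2 signal minus the scrambled mean (colour) for the characterised genes with the largest shared effects, ranked by the smaller of their fold changes with combination 1 and combination 2 (rows, raised above, lowered beneath), on each array (columns, silenced left, scrambled right). The colour is close to uniform over the 6 silenced arrays in HAS2, EMP1, MAST4, WWTR1 and YAP1, and stronger with combination 1 in TNFSF10 and DDX60.

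Genes with large decreases in both combinations lay beyond the known targets as well. They were ranked by the smaller of their fold changes with combination 1 and combination 2, and the first 20 had a smaller fold change of at least 0.64 in size (6 uncharacterised loci among them are left within the counts). COL8A1, a collagen chain of basement membranes, had 6.995, 6.88 and 6.83 with combination 1, 7.03, 7.34 and 7.13 with combination 2, and 8.34, 8.11 and 8.13 with scrambled siRNA. It fell by 1.16 (adjusted p = 0.000623). NEDD4L, a ubiquitin ligase, had 8.90, 8.95 and 9.0 with combination 1, 8.80, 8.76 and 8.86 with combination 2, and 9.87, 9.83 and 9.71 with scrambled siRNA. Its mean fold change was -0.93 ± 0.05 (adjusted p = 0.000295). MYBL1, a transcription factor of the MYB family, fell by 0.86, ARHGEF26 by 0.73, and UAP1, which makes a sugar nucleotide for glycosylation, by 0.66. NEXN, an actin-binding protein, fell by 0.70, DAW1, an assembly factor of cilia, by 0.80, GTF2H2, a subunit of the TFIIH complex with near-identical copies in the genome, by 0.85, and HIF1A-AS3, a long non-coding RNA, by 0.79. CCL20, a chemokine for CCR6, had 9.63, 9.67 and 9.72 with combination 1, 8.94, 9.05 and 9.80 with combination 2, and 10.32, 10.42 and 10.39 with scrambled siRNA. The third array of combination 2, which stood apart, was the highest silenced array here. By limma, CCL20 did not pass with combination 1 alone (-0.71, adjusted p = 0.14), nor NEXN with combination 2 alone (-0.70, adjusted p = 0.056). CCL20, NEXN and GTF2H2 did not stay in the shared set in every fit that left out 1 array.

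The genes with large increases in both combinations included surface, matrix and junction proteins. The first 20 by the smaller fold change all had at least 0.60, 4 uncharacterised loci among them. HAS2, a hyaluronan synthase, had 7.19, 7.14 and 7.15 with combination 1, 6.94, 7.12 and 7.26 with combination 2, and 6.17, 6.22 and 5.98 with scrambled siRNA. Its mean fold change was 1.01 ± 0.08 (adjusted p = 0.000981), and the combinations differed by -0.05 (95% interval -0.26 to 0.16). EMP1, a membrane protein of epithelia, had 11.10, 10.98 and 10.96 with combination 1, 10.96, 11.05 and 11.03 with combination 2, and 10.08, 10.07 and 10.04 with scrambled siRNA. It rose by 0.95 ± 0.05 (adjusted p = 0.000163), with a difference between the combinations within -0.13 to 0.13 (95% interval). MAST4, a kinase that binds microtubules, rose by 0.92 (interval of the difference -0.15 to 0.15), and ITGB8, an integrin subunit that activates latent TGF-beta, by 0.91 (difference 0.03, interval -0.16 to 0.23).

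ADGRF4, an adhesion G protein-coupled receptor, rose by 0.96, LIPH, a lipase that makes lysophosphatidic acid, by 0.78, and GALNT5, which starts O-glycosylation, by 0.79. SOX4, a transcription factor of progenitor cells, rose by 0.82, and RND1 by 0.77. GBP6, a guanylate-binding protein of a family induced by interferon, had 8.70, 8.54 and 8.50 with combination 1, 8.50, 8.63 and 8.60 with combination 2, and 7.61, 7.69 and 7.54 with scrambled siRNA. The difference between the combinations had an interval of -0.17 to 0.16. LGALS9, a galectin, had 9.86, 9.79 and 9.77 with combination 1, 9.28, 9.37 and 8.90 with combination 2, and 8.29, 8.61 and 8.83 with scrambled siRNA. Its scrambled arrays spread widely and its combination 2 effect alone did not pass (0.60, adjusted p = 0.16).

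Epithelial junction genes rose in part. Of 39 measured members of the list of junctions and keratins, 6 were raised and 1 lowered (17.9%, against 1.53% of all probe sets), all in the shared set, and the list's median was 0.11 beside 0.01 over all probe sets. CLDN4, a claudin of tight junctions, had 10.85, 10.78 and 10.73 with combination 1, 10.80, 10.83 and 10.56 with combination 2, and 10.11, 10.04 and 10.03 with scrambled siRNA. CLDN7, a claudin as well, rose by 0.60, the desmosomal cadherins DSG3 and DSC2 by 0.66 and 0.42, and occludin (OCLN) by 0.22. PKP2, a plakophilin of desmosomes, fell by 0.28. The keratins KRT7 at -0.07, KRT8 at 0.06, KRT18 at -0.05 and KRT19 at 0.15, and the cadherin CDH1 at 0.24, did not pass. Among 49 genes of integrins, actin and focal adhesion, 2 were raised and 3 lowered (10.2%). The raised genes were ITGB8 and ITGB6, at 0.60, both integrin subunits that pair with the alpha V chain. VIM, the mesenchymal filament vimentin, fell by 0.44, DIAPH3, a formin that extends actin, by 0.52, and CDC42EP3, a Cdc42 effector, by 0.25. Actins and tropomyosins did not pass, with ACTB at -0.08, ACTA2 at -0.02 and TPM1 at -0.09.

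In the extracellular matrix list, 6 of 48 measured members were raised and 3 lowered (18.8%, against 1.53% of all probe sets). The raised members were HAS2 and genes of matrix breakdown. MMP7 (matrilysin) had 11.13, 10.95 and 10.86 with combination 1, 10.93, 10.96 and 11.09 with combination 2, and 10.36, 10.21 and 10.45 with scrambled siRNA. MMP14, a membrane-bound protease, rose by 0.53, MMP1, a collagenase, by 0.66, the plasminogen activator PLAU by 0.34, and its receptor PLAUR by 0.45. COL8A1, COL12A1, a collagen of fibril surfaces, and PLOD2, a lysyl hydroxylase of collagen, were lowered, the last 2 by 0.43 and 0.76. PLOD2 had 10.67, 10.62 and 10.52 with combination 1, 9.73, 9.71 and 10.04 with combination 2, and 10.98, 10.97 and 10.97 with scrambled siRNA. Its decrease was stronger with combination 2 (difference -0.78, adjusted p = 0.0115). With combination 1 alone it was -0.37 and did not pass in limma (adjusted p = 0.11).

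**Figure D3:**
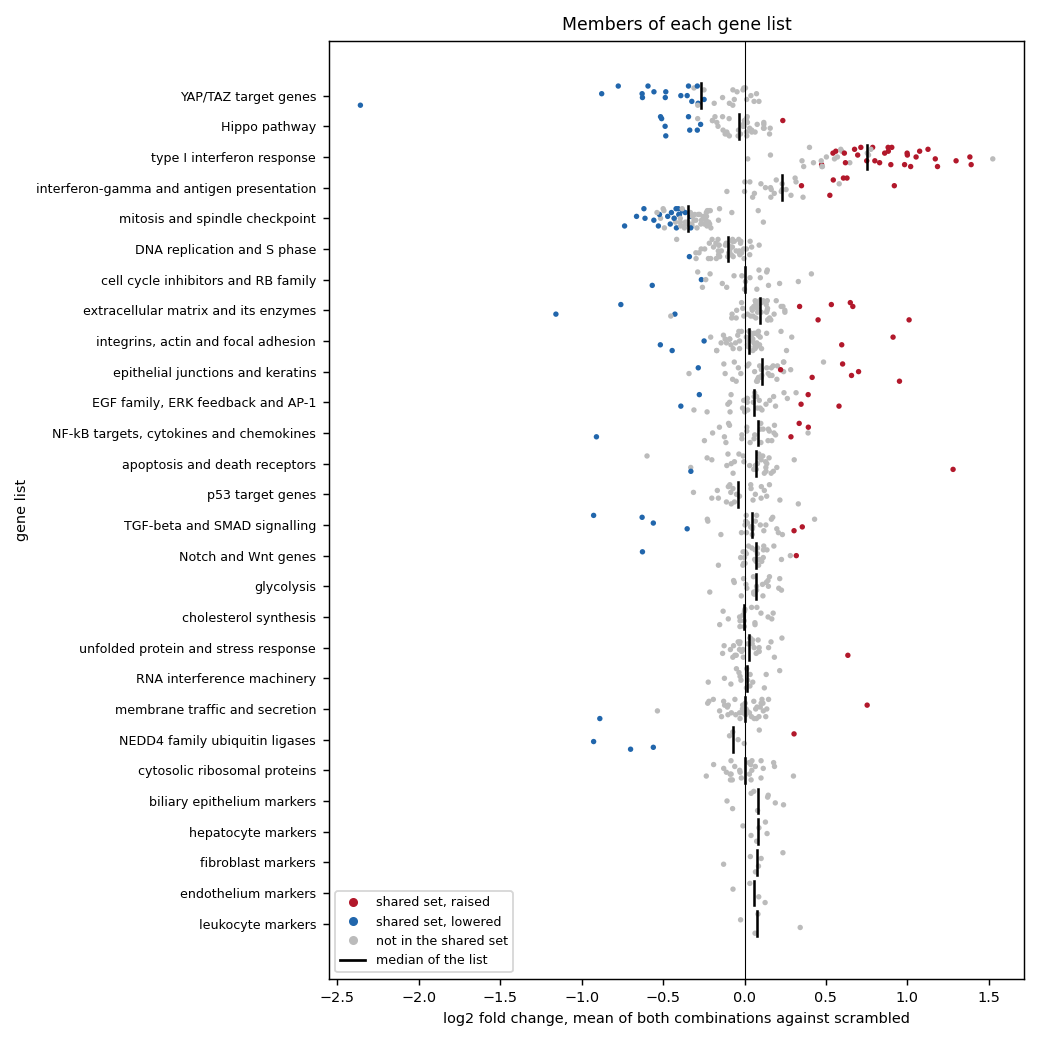
Mean log2 fold change of both combinations against scrambled siRNA (horizontal axis) for the measured members of 28 gene lists (rows). Points are genes, red where raised and blue where lowered in the shared set, and black bars are medians. The type I interferon list lies to the right, with a median of 0.75, the mitosis and YAP/TAZ target lists to the left, with medians of -0.35 and -0.27, and the marker lists hold no coloured point.

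Genes of mitosis were lowered, mostly by small amounts. Of 66 measured members of the list of mitosis and the spindle checkpoint, 20 were lowered and 0 raised (30.3%, against 1.53% of all probe sets), all 20 in the shared set, and 64 of 66 had a negative fold change. Combination 1 by itself lowered 33 of them and combination 2 by itself 4, and 1 differed between the combinations. The 20 were 5 with the silenced arrays fitted as 1 group. At an unadjusted p under 0.05, 58 were lowered and 0 raised, and an ordinary linear model called 13 lowered and 0 raised. The list's median was -0.35, with -0.48 for combination 1 and -0.23 for combination 2. AURKA, a kinase of spindle poles, had 8.75, 8.70 and 8.64 with combination 1, 8.93, 8.88 and 8.91 with combination 2, and 9.23, 9.15 and 9.24 with scrambled siRNA. KIF23, a motor of the central spindle, had 9.21, 9.32 and 9.19 with combination 1, 9.54, 9.50 and 9.75 with combination 2, and 10.01, 9.99 and 9.93 with scrambled siRNA. In both genes the combination 2 arrays lay between the combination 1 and the scrambled arrays. The differences between the combinations were 0.21 for AURKA (adjusted p = 0.275) and 0.36 for KIF23 (adjusted p = 0.16), which did not pass.

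CENPE, a kinetochore motor, fell by 0.74, TOP2A, the topoisomerase that untangles sister chromatids, by 0.53, TPX2, an activator of AURKA, by 0.43, PRC1, which bundles spindle microtubules, by 0.46, and BUB1, a checkpoint kinase, by 0.45. Members that did not pass included PLK1 at -0.39, CDK1 at -0.30, MKI67 at -0.25 and FOXM1 at -0.23. CDC25A, a phosphatase that activates cyclin-dependent kinases, had 8.11, 8.12 and 8.12 with combination 1, 7.50, 7.57 and 7.55 with combination 2, and 8.57, 8.46 and 8.31 with scrambled siRNA. It was the member of the shared mitosis genes that differed between the combinations, lower with combination 2 by 0.58 (adjusted p = 0.0137). With combination 1 alone it moved by -0.33, which did not pass in limma (adjusted p = 0.066). In whole-culture RNA, fewer cells in mitosis and less of these transcripts per cell cannot be told apart. The count of 20 was 5 without scrambled replicate 1, 6 without scrambled replicate 2, 13 without combination 2 replicate 1 or 2, and 32 without combination 2 replicate 3.

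Of 49 measured genes of DNA replication and S phase, MCM10, an initiation factor, was lowered, by 0.34, and none was raised (at an unadjusted p under 0.05, 18 lowered and 0 raised, and 2 lowered by an ordinary linear model), with a list median of -0.10. That is 2.04% of the list, close to the 1.53% of all probe sets that passed. Among 22 cell cycle inhibitors and genes of the RB family, SKP2 and CDK6 were lowered and none was raised in limma, with 7 lowered and 6 raised at an unadjusted p under 0.05. SKP2, a subunit of a ubiquitin ligase for p27, had 9.95, 9.86 and 9.75 with combination 1, 9.01, 9.01 and 9.03 with combination 2, and 10.00, 9.96 and 10.05 with scrambled siRNA. It met the rule by the narrowest margin, and combination 1 alone moved it by -0.15 (adjusted p = 0.31) where combination 2 moved it by -0.98. CDK6, a G1 kinase, fell by 0.27. The inhibitors CDKN1A at 0.14, CDKN1B at 0.15 and CDKN2B at 0.22 did not pass for the mean of both.

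The TGF-beta list had 3 raised and 4 lowered genes among 30 measured (23.3%, against 1.53% of all probe sets), 2 raised and 4 lowered in the shared set. The lowered genes were the ligand genes INHBA and TGFB2 and the ubiquitin ligase genes NEDD4L and SMURF2. SMURF2, which marks TGF-beta receptors for degradation, had 9.94, 10.03 and 9.96 with combination 1, 9.92, 9.97 and 10.02 with combination 2, and 10.55, 10.54 and 10.51 with scrambled siRNA. Its fold change was -0.56 with each combination (95% interval of the difference -0.12 to 0.12). SMURF1, its relative, was raised by 0.30, and BMPR2, a receptor of bone morphogenetic proteins, by 0.35. The NEDD4 family of ubiquitin ligases, 9 genes, thus had 3 lowered members, NEDD4L, NEDD4 at -0.70 and SMURF2, and SMURF1 as a raised one.

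Growth factor and cytokine genes moved in both directions. In the list of EGF family, ERK feedback and AP-1 genes, 3 of 33 were raised and 2 lowered (15.2%, against 1.53% of all probe sets). EREG, an EGF receptor ligand, had 11.33, 11.38 and 11.30 with combination 1, 11.25, 11.30 and 11.47 with combination 2, and 10.78, 10.72 and 10.77 with scrambled siRNA. HBEGF, also a ligand of that receptor, fell by 0.28, and the ERK feedback genes DUSP4 and SPRY2 rose by 0.35 and 0.39. Among 30 NF-kB genes, cytokines and chemokines, IL1B rose by 0.39, CCL2 by 0.34 and NFKBIA, the inhibitor of NF-kB, by 0.28, and CCL20 fell by 0.91. DKK1, a secreted Wnt inhibitor, fell by 0.63, and NOTCH2, a Notch receptor, rose by 0.32 (adjusted p = 0.0497), the pair that passed among 28 Notch and Wnt genes. DDIT4, an inhibitor of mTOR signalling, was raised by 0.63, alone among 30 genes of the unfolded protein and stress response (3.33%). Of 41 genes of membrane traffic and secretion, 1 was raised (ATP6V0D2) and 2 were lowered, of which OSTM1, a partner of a lysosomal chloride transporter, was in the shared set at -0.89. None of the measured genes of p53 targets (24), glycolysis (22), cholesterol synthesis (19), the RNA interference machinery (16) and cytosolic ribosomal proteins (26) passed in limma. At an unadjusted p under 0.05, 15 of these 107 genes were raised and 6 lowered, and an ordinary linear model called 1 in each direction.

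The interferon response was raised for the mean of both combinations, for the most part with combination 1. Type I interferon is a signal of antiviral defence, and its target genes encode RNA sensors and proteins that block virus growth. Of 48 measured members, 42 were raised and 0 lowered (47 and 0 at an unadjusted p under 0.05), 29 of them in the shared set, where 1.53% of all probe sets passed. By itself combination 1 raised 45 of the 48 and combination 2 raised 7, and 36 differed between the combinations. With all 6 silenced arrays fitted as 1 group, the 29 shared members were 0. The list's median was 0.75, with 1.16 for combination 1 and 0.33 for combination 2. The median deviation of the list from the scrambled mean lay between 1.14 and 1.22 on the combination 1 arrays, between 0.24 and 0.39 on the combination 2 arrays, and between -0.10 and 0.08 on the scrambled arrays. By this median every silenced array lay above every scrambled array, and the arrays of the combinations did not overlap.

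IFIT1, which binds foreign RNA ends, had 8.53, 8.43 and 8.63 with combination 1, 6.58, 6.91 and 6.75 with combination 2, and 6.18, 6.42 and 6.15 with scrambled siRNA. Its fold change was 0.49 with combination 2 and 2.28 with combination 1 (difference -1.79, adjusted p = 0.000596). With combination 2 alone it did not pass in limma (adjusted p = 0.10). DDX60, a helicase of RNA sensing, had 8.61, 8.64 and 8.62 with combination 1, 7.74, 7.94 and 7.88 with combination 2, and 7.18, 7.26 and 7.28 with scrambled siRNA. It was the list member among the first 20 raised genes by the smaller fold change, with 1.38 for combination 1 and 0.62 for combination 2 (adjusted p = 0.0052). RSAD2 (viperin), USP18, which removes ISG15 from proteins, and MX2, an antiviral GTPase, rose on average by 1.17, 1.30 and 1.39, and their fold changes with combination 2 alone, at 0.36, 0.57 and 0.50, did not pass. PARP14 and PARP9, ADP-ribosyltransferases of the interferon response, rose by 0.88 and 0.80 and passed with each combination alone.

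TNFSF10, the death ligand TRAIL, had 9.34, 9.28 and 9.38 with combination 1, 8.38, 8.42 and 8.45 with combination 2, and 7.56, 7.70 and 7.53 with scrambled siRNA. Its fold change was 1.74 with combination 1 and 0.82 with combination 2, with every array of a group apart from those of the others. In the apoptosis list, 1 of 33 genes was raised (TNFSF10) and 3 were lowered (12.1%, against 1.53% of all probe sets). Of the lowered genes, TNFRSF10D, a decoy receptor of TRAIL, met the rule on arrays (-0.33). Of 28 measured genes of interferon-gamma and antigen presentation, 7 were raised and 0 lowered (25%), 6 of them in the shared set. At an unadjusted p under 0.05, 18 were raised and 0 lowered. With combination 1 by itself 9 passed and with combination 2 by itself 1, where 1.47% and 0.737% of all probe sets did. GBP4, a guanylate-binding protein, had 7.77, 7.79 and 7.82 with combination 1, 6.28, 6.40 and 6.31 with combination 2, and 6.20, 6.21 and 6.02 with scrambled siRNA. Its fold change with combination 2 alone, 0.19, did not pass in limma (adjusted p = 0.29). ERAP1, which trims peptides for antigen presentation, rose by 0.51 with combination 2 and by 0.53 with combination 1 (difference -0.02, interval -0.16 to 0.11). The proteasome subunits PSMB9 and PSMB8 rose on average by 0.61 and 0.35, and neither passed with combination 2 alone.

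The difference between the combinations does not use the scrambled arrays, although it is measured against the same residual spread as the comparison that chose the genes. Of the 560 shared members 57 differed (10.2%), 53 of them with the higher level in combination 1, against 128 of all probe sets (0.325%). Among the raised members, 45 of 276 differed (16.3%), 44 with the higher level in combination 1. Of the lowered members, 12 of 284 differed (4.23%), 9 with the higher level in combination 1. Genes of the interferon lists made up 29 of the 57.

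The 3 lowered genes that differed towards a higher level in combination 2 were VGLL1, EPAS1 and CORO1C. EPAS1, the hypoxia-inducible factor HIF-2 alpha, had 7.76, 7.66 and 7.65 with combination 1, 8.17, 8.18 and 8.10 with combination 2, and 8.52, 8.53 and 8.58 with scrambled siRNA. It was lowered on all silenced arrays and more by combination 1 (difference 0.46, adjusted p = 0.0138). ATP6V0D2, which belongs to the proton pump of vacuoles and lysosomes, was the raised member with more signal in combination 2. It had 6.22, 6.35 and 6.15 with combination 1, 6.70, 6.75 and 6.88 with combination 2, and 5.80, 5.73 and 5.73 with scrambled siRNA.

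**Figure D4:**
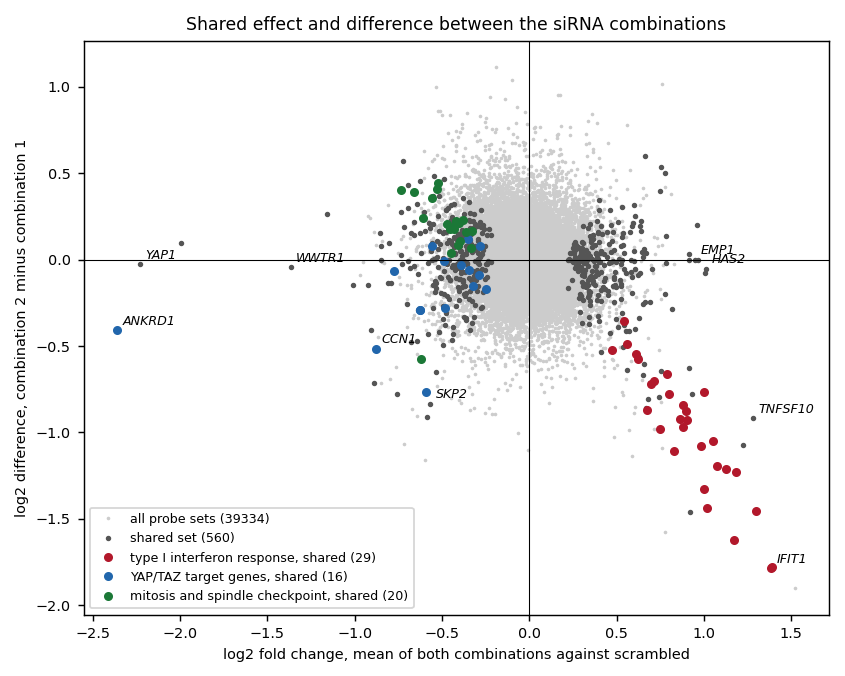
Each probe set by its mean log2 fold change of both combinations against scrambled siRNA (horizontal axis) and by the log2 difference of combination 2 minus combination 1 (vertical axis). Light grey points are all 39334 probe sets, dark grey the 560 of the shared set, and coloured points shared members of the lists named in the key. Shared type I interferon genes run down to the right, with IFIT1 at 1.38 and -1.79, while EMP1, HAS2, WWTR1 and YAP1 lie near the horizontal line.

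The size of the shared set depended on single arrays. It held between 195 and 845 genes when each array was left out in turn, with 195 and 204 without scrambled replicates 1 and 2, 439 without scrambled replicate 3, between 299 and 335 without combination 1 replicate 1, 2 or 3 or combination 2 replicate 1 or 2, and 845 without combination 2 replicate 3. In all 9 of these fits 167 of the 560 members were kept, 101 raised and 66 lowered. They included YAP1, WWTR1, ANKRD1, CCN1, CCN2, COL8A1, NEDD4L, HAS2, EMP1, ITGB8, CLDN4, TNFSF10 and IFIT1. Of the list members, 8 of the 16 YAP/TAZ targets, 26 of the 29 type I interferon genes and 5 of the 20 mitosis genes were kept.

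**Figure D5:**
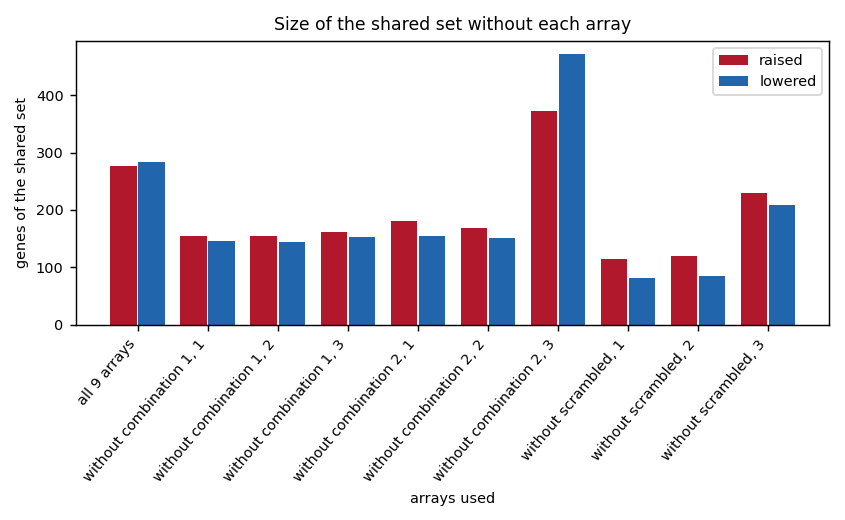
Number of genes in the shared set (vertical axis, raised and lowered bars side by side) with all 9 arrays and with each array left out in turn (horizontal axis). With all arrays there are 276 raised and 284 lowered genes, the fewest remain without scrambled replicate 1, and the set grows to 845 without combination 2 replicate 3.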

How the data were processed

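RNA of HUCCT-1 cells was hybridised to 9 Clariom D arrays, 3 each for YAP/TAZ siRNA combination 1, combination 2 and scrambled siRNA. The authors deposited log2 values for each probe set, made by RMA (background correction, quantile normalization and summary) with custom probe set definitions. Distinct values number 29641 on scrambled replicate 1 and 7528 on any other array, whose values are rounded more coarsely. The number of arrays limits the precision.

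Of 39334 probe sets, 37201 carried 1 gene symbol in the platform annotation and 2133 none here. A model of 3 group means was fitted to all probe sets with limma 3.58.1 in R 4.3.3 (prior degrees of freedom 2.54). The contrasts were the mean of both combinations minus scrambled siRNA and combination 2 minus combination 1, two-sided, with Benjamini-Hochberg adjustment over all probe sets and a threshold of 0.05. The script was tested on simulated data with known changes. Fold changes above are differences of log2 values.

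Members and the 28 gene lists were chosen with earlier results of these data known. Named are the siRNA targets, the first 20 raised and lowered shared genes by the smaller of the fold changes with each combination, up to 6 shared members per list by p, list members that did not pass, the 5 largest differences each way between the combinations, and the 2 genes each way nearest to overlap, with uncharacterised loci left out. Other genes named were chosen after their values were seen. Promoters came from RefSeq (GRCh38.p14). They were matched by symbol for 188 of 276 raised and 169 of 284 lowered genes. Alternatives were other normalizations, filters, variance models, array weights, 2 groups, a replicate block, other probe sets, a fold threshold, other rules for the shared set and leaving out each array. Some listed genes are not analysed here.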

Additional observations from a re-analysis of the deposited data

Results flagged for a closer look

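Within the shared set 57 genes differed between the siRNA combinations (limma, combination 2 minus combination 1, adjusted p under 0.05). Both combination means of these genes lay on the same side of the scrambled mean, and the combinations differed in the size of the effect. Among named raised genes, most of the interferon response, the log2 difference was -1.9 in IFI44L, -1.79 in IFIT1, -1.78 in MX2, -1.62 in RSAD2, -1.46 in GBP4, -1.45 in USP18, -1.44 in RIGI, -1.33 in TRIM22 and -1.23 in IFI44. It was -0.97 in PARP14, -0.92 in TNFSF10, -0.78 in PARP9, -0.77 in DDX60, -0.61 in SP100 and -0.56 in GBP5. In all of these the fold change was larger with combination 1. IFI44, PARP14, TNFSF10, PARP9 and DDX60 also passed with combination 2 alone, and the others did not.

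Among lowered genes the decrease was larger with combination 2 in TMTC3 (difference -0.91), SKP2 (-0.83), PLOD2 (-0.78), UHMK1 (-0.76), CDC25A (-0.58) and CCN1 (-0.51). Of these, CCN1 passed with combination 1 alone, and the others did not. The decrease was larger with combination 1 in VGLL1 (0.47), EPAS1 (0.46), KATNAL1 (0.43) and CORO1C (0.32), and the increase larger with combination 2 in ATP6V0D2 (0.54). VGLL1, KATNAL1 and CORO1C did not pass with combination 2 alone. IFI44L, SP100 and KATNAL1 passed the test for the mean of both combinations but had overlapping arrays and are outside the shared set.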

How the results depend on the processing

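No result reversed its direction under any alternative run. The counts are of genes called in a stated direction, so a reversal was hardly possible for them. The comparison of both combinations with scrambled siRNA gave 600 genes, of which 560 were shared. Both counts moved to 1170 and 1035 without the 40% of dimmest probe sets, 960 and 856 with array weights, 262 and 262 with 2 groups of arrays, 1215 and 1016 with only protein-coding genes, and 208 and 194 at a log2 fold change of at least 0.5. The shared set held 170 genes where each combination alone had to pass, and 3698 where no overlap alone was asked for. The 57 shared genes that differ between the combinations were 36 with an ordinary linear model and 102 with protein-coding genes. The 16 lowered YAP/TAZ targets were 10 with 2 groups and 7 at a fold change of at least 0.5. The 20 lowered mitosis genes were 31 without the dimmest probe sets and with protein-coding genes, 13 with an ordinary linear model, 5 with 2 groups and 7 at a fold change of at least 0.5. With 2 groups the 29 shared interferon genes fell to 0, since the difference between the combinations then enters the residual spread. Rounding scrambled replicate 1 as the others, chosen after seeing the data for all results but the shared set, gave 599 and 559 genes.

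With each array left out in turn, the changed genes ranged from 203 to 883, the shared set from 195 to 845, the shared genes that differ between the combinations from 28 to 66, the YAP/TAZ targets from 8 to 16, the mitosis genes from 5 to 32 and the interferon genes from 26 to 41. The highest counts came without combination 2 replicate 3. Of 102 named genes, 38 kept their call in all 18 settings run for them, and 48 lost it with 2 groups. None changed sign, but for shared genes the rule of no overlap fixes the sign when an array is left out. Other variance models keep the fold change itself.

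Replicate numbers were checked as pairs. Over all probe sets, deviations of arrays with the same number correlated between -0.173 and 0.0483, which shows no pairing across the whole array. This check does not reach an effect on a part of the genes, and the labels do not say what the number means. With the replicate block, 231 genes changed, 219 were shared, and 26 shared genes differed between the combinations, with 9 YAP/TAZ targets and 9 mitosis genes. Precision is limited by 3 arrays per group, and 37 of the 560 shared genes, against 15733 of all probe sets, were among the 40% with the dimmest signal.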

Other observations

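Of the 560 shared genes, 440 stood in no gene list. The genes below were chosen from these after their values were seen, so their grouping is a description with no test. Transcription factors of epithelial cells were raised. ELF3 had log2 signals of 8.57, 8.41 and 8.53 with combination 1, 8.46, 8.45 and 8.13 with combination 2, and 7.84, 7.84 and 8.04 with scrambled siRNA. KLF5 rose by 0.34, EHF by 0.31 and GRHL3 by 0.39. NECTIN4, an adhesion protein of epithelia, rose by 0.50 and CDH6, a cadherin, by 0.52. SNAI2 (SLUG), a repressor of epithelial genes, had 9.54, 9.67 and 9.59 with combination 1, 9.25, 9.33 and 9.38 with combination 2, and 10.04, 10.12 and 9.86 with scrambled siRNA. Enzymes and carriers of surface sugars were also raised, with the fucosyltransferases FUT2 and FUT3 at 0.49 and 0.43, GALNT4 at 0.46, the mucin MUC16 at 0.45 and CEACAM6 at 0.40.

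Genes of immune recognition moved in both directions. CD274, the checkpoint ligand PD-L1, had 9.08, 9.08 and 9.21 with combination 1, 8.80, 8.88 and 8.89 with combination 2, and 9.50, 9.51 and 9.44 with scrambled siRNA, and its mean fold change was -0.49 (adjusted p = 0.00279). PDCD1LG2, the related ligand PD-L2, rose by 0.26. The chemokine receptor CXCR4 fell by 0.44. Sensors of nucleic acids were raised, with TLR3 at 0.76, AIM2 at 0.53 and ZBP1 at 0.41. MYD88, a signalling adaptor, rose by 0.63. The apolipoproteins L were raised too, with APOL1 at 0.57, APOL6 at 0.54, APOL2 at 0.49 and APOL3 at 0.31. TLR3, ZBP1, APOL1 and APOL6 were higher with combination 1 than with combination 2 past the threshold. LMNB1, a lamin of the nuclear envelope, fell by 0.47, the receptor ROR1 by 0.38, LPAR1, a receptor of lysophosphatidic acid, by 0.36, and the EGF family ligand NRG1 by 0.30.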
